A study of Mus musculus with 6 samples.

Results

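Mineralization genes were taken as 10 genes chosen by symbol, *Bglap*, *Bglap2*, *Ibsp*, *Spp1*, *Dmp1*, *Alpl*, *Phex*, *Enpp1*, *Phospho1* and *Mgp*, and all 10 were found among the 33696 genes of the count tables. Their levels were followed in 6 single-cell RNA-seq libraries of mouse Achilles tendon, 1 library per condition. Cells were sorted by flow cytometry into *Gli1*+ and *Gli1*- fractions of uninjured tendon and of tendon at 7 and 21 days post-injury (dpi), after cutting of the tendon (tenotomy), an injury that is followed by heterotopic ossification (HO), the growth of cartilage and bone in soft tissue. The questions were in which libraries and in which cells these genes were read, and whether the bone matrix genes, the phosphate enzymes and the mineralization inhibitor moved together after injury.

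All mice, controls included, carried *Gli1*-CreERT2 and the Ai9 reporter and received tamoxifen, and the injured mice were operated on a week after its injections. The Cre is driven by the *Gli1* locus and works only with tamoxifen, so that tdTomato marks cells that used *Gli1* at induction and their progeny, not cells that use it when sorted. *Gli1*- cells are the other sorted cells of the tissue, vessel cells among them. Ages were not given in the sources used here. Each library pooled several mice of a cohort stated to hold both sexes equally, with no map from cells to mice, so that no spread between mice could be had, and with 1 library per condition no test was made.

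In mineralizing tissue, osteoblasts secrete collagen together with acidic proteins that bind mineral. Osteocalcin (*Bglap*, *Bglap2*), bone sialoprotein (*Ibsp*), osteopontin (*Spp1*) and dentin matrix protein (*Dmp1*) are such proteins. Mineral grows where phosphate is high and pyrophosphate, its inhibitor, is low. Tissue-nonspecific alkaline phosphatase (*Alpl*) cleaves pyrophosphate, *Phospho1* releases phosphate inside matrix vesicles, and *Enpp1* makes pyrophosphate from ATP. *Phex* is an endopeptidase of osteoblasts and osteocytes that acts on acidic matrix peptides, and matrix Gla protein (*Mgp*) inhibits calcification of cartilage and vessel walls. Hypertrophic chondrocytes, which express *Col10a1*, also make *Ibsp*, *Spp1* and *Alpl* as cartilage is replaced by bone.

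Levels are unique molecular identifiers (UMIs) of a gene summed over cells per 1000000 UMIs (CPM). Intervals are 95% intervals of counting error only, and UMIs of 1 cell are not independent. Cells were grouped by gates on a few genes. Bone-like cells hold at least 5 UMIs of *Bglap* plus *Ibsp*, *Col2a1* cells at least 5 UMIs of that cartilage collagen gene, *Cdh5* cells (endothelial) and *Pdgfra* cells (connective tissue) at least 1 UMI of the named gene, and mural cells at least 5 UMIs of *Rgs5* plus *Myh11*. The libraries held 7057 to 10882 kept cells and 53589094 to 107739968 UMIs, and 27 to 75 cell barcodes were shared by pairs of libraries, 0.328% to 0.534% of the smaller library. The uninjured *Gli1*+ library stood apart. In it 54.8% of cells held a UMI of the leukocyte gene *Ptprc* outside the bone-like, *Col2a1* and *Cdh5* gates, against at most 0.239% in the other 5 libraries. Epidermal cells (at least 20 UMIs of *Krt5* plus *Krt14*) made up 19.1% of the *Gli1*+ library at 7 dpi, 1.49% and 6.46% of the uninjured and 21 dpi *Gli1*+ libraries and at most 0.386% of the *Gli1*- libraries. The sexes also differed between libraries. Cells with *Xist* and no Y-linked UMIs came to 68.8%, 0.0108% and 92.7% (*Gli1*+) and 0%, 0.0101% and 90.6% (*Gli1*-) in the order uninjured, 7 dpi and 21 dpi, so that sex cannot be told apart from time point at 21 over 7 dpi in either sort and over uninjured, other than 7 dpi in *Gli1*- cells, nor from the sort before injury. The neural adhesion gene *Cntn5* also set libraries apart, at 1.80, 173 and 0.560 CPM for *Gli1*+ and 654, 206 and 0.388 CPM for *Gli1*- cells in the same order. It was high in both 7 dpi libraries and uninjured *Gli1*- cells and far lower in the other 3, and its part in the results was not tested. *Gli1* itself stood at 6.62, 2.15 and 4.12 CPM in the sorted *Gli1*+ cells and 7.52, 2.55 and 3.93 CPM in the *Gli1*- cells, and the label was not checked further. The tenocyte gate (at least 1 *Scx* UMI and 5 of *Tnmd* plus *Fmod*, outside bone-like and *Col2a1* cells, chosen after seeing the data) held 7.26% to 17.1% of *Gli1*+ and 1.12% to 11.3% of *Gli1*- cells. Log2 ratios over uninjured gain 0.29 at 7 dpi and 0.39 at 21 dpi under TMM scaling in *Gli1*+ cells, and 0.22 and 0.25 in *Gli1*- cells.

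The matrix genes did not move as a group. In *Gli1*+ cells at 21 dpi, *Ibsp*, *Spp1* and *Dmp1* were above their uninjured level whereas the osteocalcin genes were below it, and at 7 dpi most members were at their lowest. A ratio was counted where the 2 libraries together held at least 30 UMIs of a gene, which 9 members reached and *Phospho1* did not. At 7 dpi over uninjured in *Gli1*+ cells, 2 of the 9 were past 2-fold higher (*Spp1*, *Enpp1*) and 6 past 2-fold lower, where 13.8% and 27% of all 19560 genes were. At 21 dpi over uninjured, 6 were higher (*Ibsp*, *Spp1*, *Dmp1*, *Alpl*, *Enpp1*, *Mgp*) and 3 lower (*Bglap*, *Bglap2*, *Phex*), against 10.2% and 27.9% of all genes. In *Gli1*- cells 3 were higher (*Ibsp*, *Spp1*, *Enpp1*) and 4 lower at 7 dpi, against 12.4% and 21.4%. At 21 dpi in *Gli1*- cells 5 were higher (*Ibsp*, *Spp1*, *Dmp1*, *Enpp1*, *Mgp*) and 1 lower (*Phex*), against 11.4% and 18.7%. Between the injured time points the direction was shared, with 8 of 9 members past 2-fold higher and 0 lower at 21 over 7 dpi in *Gli1*+ cells, and 8 and 0 in *Gli1*- cells. All genes gave 5.95% and 9.88%, and 8.02% and 6.27%, in these comparisons. *Enpp1* was the member that did not pass. The 7 dpi libraries held nearly no cells with *Xist* and the 21 dpi libraries mostly such cells, so sex and time point cannot be told apart here. The median log2 ratio of the 9 members was -1.73 and 1.27 at 7 and 21 dpi over uninjured for *Gli1*+ and -0.72 and 1.06 for *Gli1*- cells, and that of all tested genes -0.26, -0.33, -0.23 and -0.20. The 2 comparisons of a sort share the uninjured library.

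The immune cells of the uninjured *Gli1*+ library bear on these counts. With *Ptprc* cells left out of all libraries, no member was past 2-fold higher and 6 were lower at 7 dpi in *Gli1*+ cells, where 10.8% and 23.7% of all genes were. At 21 dpi 2 were higher and 3 lower, against 6.19% and 23%. Those higher were *Ibsp* with a log2 ratio of 2.37 and *Spp1* with 2.67. The log2 ratios at 21 dpi then came to 0.75 for *Dmp1*, 0.19 for *Alpl*, 0.91 for *Enpp1* and 0.28 for *Mgp*. Without epidermal cells, an alternative chosen after seeing the data, the *Gli1*+ counts stayed at 2 higher and 6 lower at 7 dpi and 6 and 3 at 21 dpi, with log2 ratios at 7 dpi of -7.67 for *Bglap*, -4.42 for *Ibsp* and 1.41 for *Spp1*.

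**Figure D1:**
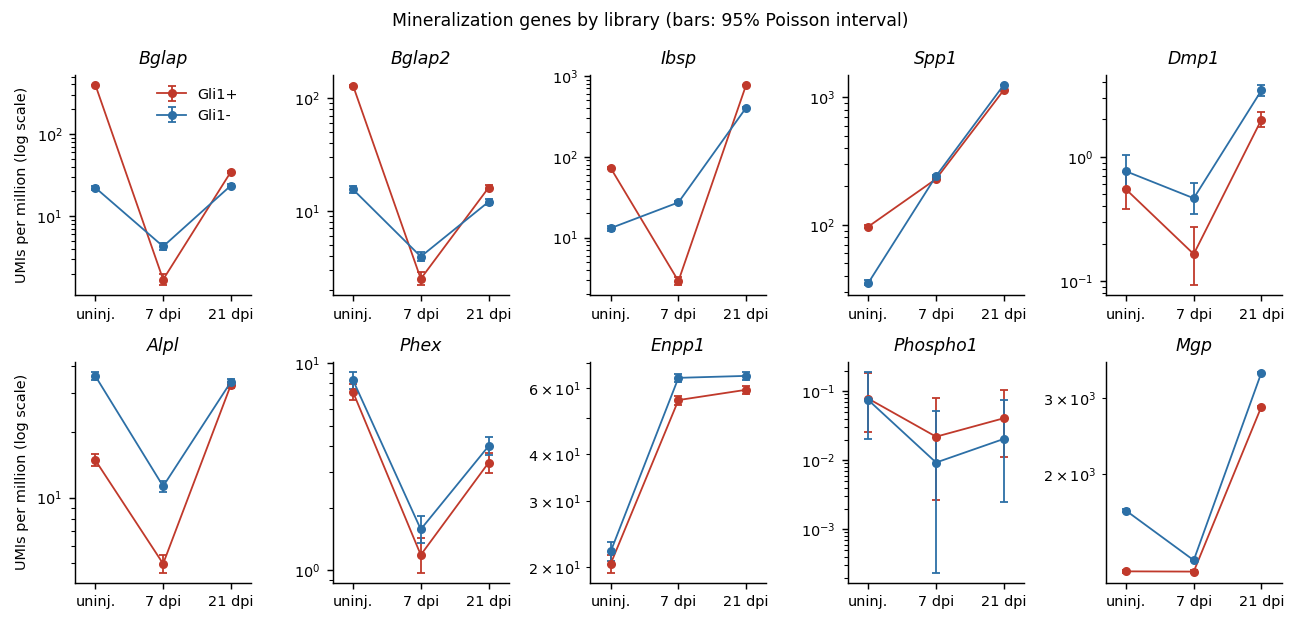
Level of each of the 10 mineralization genes (CPM, log scale, a separate axis for each gene) in *Gli1*+ and *Gli1*- cells before injury, at 7 dpi and at 21 dpi. Points are single libraries and bars 95% Poisson intervals of counting error. *Bglap* stood at 394 CPM before injury, 1.69 CPM at 7 dpi and 34.6 CPM at 21 dpi in *Gli1*+ cells, while *Ibsp* and *Spp1* were highest at 21 dpi in both sorts.

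**Figure D2:**
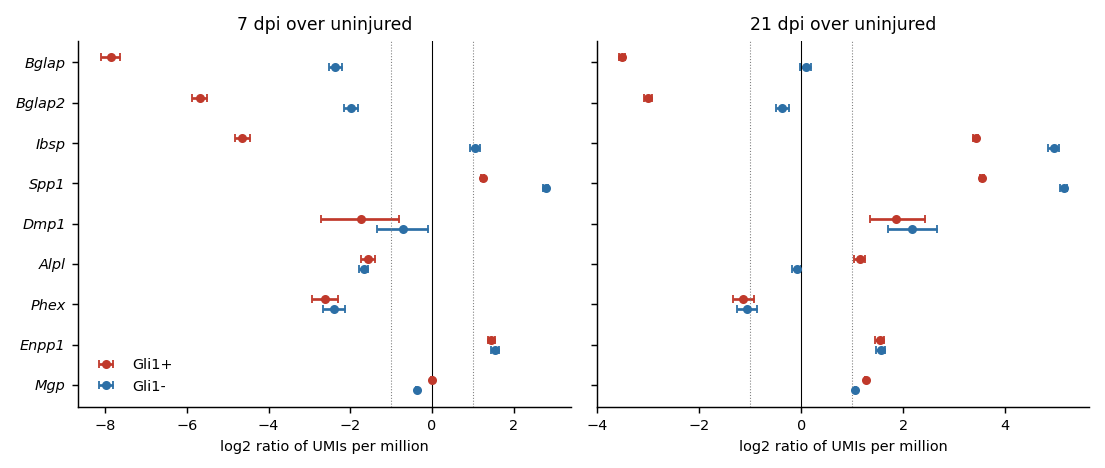
Log2 ratio of CPM over the uninjured library for 9 members at 7 dpi (left) and 21 dpi (right) in *Gli1*+ and *Gli1*- cells. Bars are 95% intervals of counting error, the solid line marks no difference and the dotted lines 2-fold. The osteocalcin genes lie far left of *Ibsp* and *Spp1* at 21 dpi in *Gli1*+ cells, and *Ibsp* lies on opposite sides in the sorts at 7 dpi.

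The promoters of the 3 matrix genes that parted at 21 dpi in *Gli1*+ cells, *Bglap* below and *Ibsp* and *Spp1* above their uninjured level, are shown as context for their levels. The 150 bases before the start are printed from RefSeq, for *Bglap* from GRCm38.p6 chr3:88384467-88384616, minus strand, for *Ibsp* from GRCm38.p6 chr5:104299137-104299286, plus strand, and for the first of 2 *Spp1* starts from GRCm38.p6 chr5:104434961-104435110, plus strand. Capitals mark ACCACA, the core letters of the site bound by *Runx2*, the transcription factor that osteoblasts need, or its reverse complement TGTGGT, searched on both strands.
Bglap: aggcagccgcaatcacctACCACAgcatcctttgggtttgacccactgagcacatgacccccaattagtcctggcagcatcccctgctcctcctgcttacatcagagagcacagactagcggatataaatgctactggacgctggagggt
Ibsp: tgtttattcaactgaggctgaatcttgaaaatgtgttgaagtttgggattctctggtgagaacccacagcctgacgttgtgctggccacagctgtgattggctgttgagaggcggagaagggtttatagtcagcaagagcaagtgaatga
Spp1: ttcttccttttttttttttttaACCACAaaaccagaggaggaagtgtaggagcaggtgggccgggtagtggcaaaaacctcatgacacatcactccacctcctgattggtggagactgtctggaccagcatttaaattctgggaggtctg
The letters stand 132 bases before the *Bglap* start and 128 bases before the *Spp1* start, and were not in this window of *Ibsp*. 8.40% of the 32851 promoters in the table hold them in the same window, and so do 3 of the 11 promoters of the 8 members that the table lists (*Bglap*, the first *Spp1* start, *Enpp1*). The second *Spp1* start lacks them. *Bglap2* and *Mgp* were not matched. A match of letters is a description and not a bound site.

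Osteocalcin is a vitamin K-dependent protein of mature osteoblasts, and mice have a cluster of near-identical copies. *Bglap* was read at 394 CPM before injury, 1.69 CPM at 7 dpi and 34.6 CPM at 21 dpi in *Gli1*+ cells, and at 22.1, 4.28 and 23.6 CPM in *Gli1*- cells. It was by far highest in uninjured *Gli1*+ cells, 17.8-fold above uninjured *Gli1*- cells, and lowest at 7 dpi. The uninjured sorts also differed in *Xist* cells, *Cntn5* and *Ptprc* cells, so the part of the sort in this fold cannot be told apart from other differences between these libraries. The intervals of uninjured and 21 dpi *Gli1*- cells overlapped and no others did. The log2 ratio over uninjured in *Gli1*+ cells was -7.86 (95% interval -8.10 to -7.63) at 7 dpi and -3.51 (95% interval -3.56 to -3.46) at 21 dpi. In *Gli1*- cells it was -2.37 (95% interval -2.53 to -2.22) and 0.09 (95% interval -0.01 to 0.19). These UMIs came from very few cells. A single cell held 25.8% of all *Bglap* UMIs of the uninjured *Gli1*+ library, 4 cells held at least 50% of them, and 1 cell held 77.9% in the *Gli1*- library at 7 dpi. Without the cell richest in the gene in each library, an alternative chosen after seeing the data, the *Gli1*+ ratios were -7.56 and -3.74 and the *Gli1*- ratios -3.84 and 0.38.

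*Bglap2* lay in a like order, at 129 CPM before injury, 2.51 CPM at 7 dpi and 16.1 CPM at 21 dpi in *Gli1*+ cells, and at 15.5, 3.94 and 12.05 CPM in *Gli1*- cells. Its log2 ratio over uninjured was -5.69 and -3.01 in *Gli1*+ cells and -1.98 and -0.37 in *Gli1*- cells at 7 and 21 dpi. Its intervals overlapped between 21 dpi *Gli1*+ and uninjured *Gli1*- cells. *Bglap* made up 75.3%, 40.3% and 68.3% of the UMIs of both genes for *Gli1*+ and 58.8%, 52.03% and 66.2% for *Gli1*- cells. How the UMIs split between the copies is uncertain, since the last 300 bases of their coding transcripts, where 3 prime libraries read, are identical at 299 positions, and at 290 between *Bglap* and *Bglap3*.

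Bone sialoprotein nucleates mineral in young bone and in hypertrophic cartilage. *Ibsp* was read at 72.5 CPM before injury, 2.90 CPM at 7 dpi and 776 CPM at 21 dpi in *Gli1*+ cells, and at 13.1, 27.3 and 405 CPM in *Gli1*- cells. It was highest at 21 dpi in both sorts, no intervals overlapped, and the *Gli1*+ library at 21 dpi held 1.92 times the *Gli1*- level. The log2 ratio of 21 dpi over uninjured was 3.42 (95% interval 3.38 to 3.46) in *Gli1*+ and 4.95 (95% interval 4.84 to 5.06) in *Gli1*- cells. At 7 dpi the sorts went apart, with -4.64 (95% interval -4.83 to -4.46) in *Gli1*+ and 1.06 (95% interval 0.94 to 1.18) in *Gli1*- cells. The 7 dpi levels rested on few cells, since 1 cell held 53.8% of the *Gli1*+ and 2 cells at least 50% of the *Gli1*- UMIs, and 16 and 14 cells did so at 21 dpi. Cells outside the bone-like gate hold fewer than 5 *Ibsp* UMIs by its rule, so their low levels are no finding. At 21 dpi *Ibsp* was at 9.68 and 12.4 CPM in *Pdgfra* cells, 12.8 and 12.9 CPM in mural cells and 13.2 and 15.96 CPM in *Cdh5* cells. The *Cdh5* gate, meant for vessel endothelial cells, served as the background. A single *Cdh5* UMI admits a cell, so cells of other types may be in it. At 21 dpi, 168 of its 367 *Gli1*+ and 917 of its 2094 *Gli1*- cells held at least 3 *Cdh5* UMIs. With each cell thinned to 2000 UMIs, an *Ibsp* UMI was found in 1.995% and 3.04% of *Pdgfra* cells and 1.77% and 2.96% of *Cdh5* cells at 21 dpi, and unthinned in 8.91% and 10.8% and 7.63% and 10.7%. The intervals of the thinned shares overlapped (1.62 to 2.43% and 0.654 to 3.82% in *Gli1*+, 2.56 to 3.58% and 2.22 to 3.86% in *Gli1*- cells).

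The bone-like cells, which members themselves define, numbered 40, 13 and 173 among *Gli1*+ and 9, 17 and 205 among *Gli1*- cells, or 0.567%, 0.141% and 1.77% and 0.0827%, 0.171% and 1.89% of cells. They held 1.30%, 0.116% and 2.72% of all *Gli1*+ UMIs and 0.314%, 0.283% and 3.09% of all *Gli1*- UMIs. *Col2a1* cells outside this gate held 0.176%, 0.481% and 2.78% and 0%, 0.739% and 3.28% of all UMIs. Macrophage markers summed to at most 88.1 CPM in bone-like cells. *Sp7*, a factor that osteoblasts need, was at 88.1, 37.8 and 73.3 and 113, 75.3 and 54.5 CPM, against 0, 0.426 and 0 and 0.0565, 0.138 and 0.124 CPM in *Cdh5* cells. *Ifitm5*, a gene of osteoblasts, was at 424, 246 and 227 and 594, 409 and 117 CPM, against 3.52, 1.70 and 5.71 and 4.30, 2.14 and 3.84 CPM. Of an osteocyte list that holds *Dmp1* and *Phex* (with *Sost*, *Mepe*, *Pdpn*, *Fgf23*), 4, 3 and 5 and 4, 3 and 4 of 6 genes were detected. A gene counted as detected with any UMI in the gate. No other cell group is set beside this count, so it does not mark osteocytes. Thinned to 2000 UMIs per cell, the gate held fewer cells, 30, 3 and 124 and 5, 8 and 123.

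The bone-like cells differed in which of the genes they held. Of the 40 uninjured *Gli1*+ cells, 21 held at least 5 UMIs of both *Bglap* and *Ibsp*, 5 of *Bglap* alone and 13 of *Ibsp* alone. At 21 dpi these numbers were 10, 10 and 150 among 173 *Gli1*+ cells and 27, 16 and 155 among 205 *Gli1*- cells. At 7 dpi, 1, 9 and 3 of the 13 *Gli1*+ and 1, 2 and 12 of the 17 *Gli1*- cells held them in the same order, and in uninjured *Gli1*- tendon 6 of 9 cells held both and 3 held *Ibsp* alone. Cells with *Bglap* alone were thus the most frequent at 7 dpi in *Gli1*+ cells, and those with *Ibsp* alone at 21 dpi. The 9 former cells lay close to the minimum, at a median of 9 *Bglap* and 0 *Ibsp* UMIs, and 2 held *Alpl* and 3 *Spp1*, so that the name bone-like rests on *Bglap* alone there. The median *Bglap* count of the cells with both was 557 UMIs in uninjured *Gli1*+, 128 in 21 dpi *Gli1*+ and 14 in 21 dpi *Gli1*- cells, at median depths of 27486, 14357 and 14565 UMIs per cell. A *Spp1* UMI was found in 4 of the 21 uninjured *Gli1*+ cells with both, and in 9 of 10 and 26 of 27 at 21 dpi. *Cdh5* cells, of lower depth, had a *Spp1* UMI in 11.9% of uninjured *Gli1*+ cells, and in 27.5% and 45.1% at 21 dpi, so the background also differed between these libraries. Within the gate, summed levels of *Bglap* were 30102, 832 and 1219 CPM for *Gli1*+ and 6859.9, 1238 and 689 CPM for *Gli1*- cells and those of *Ibsp* 5556, 1910.4 and 28149 CPM for *Gli1*+ and 4015, 8909.8 and 12653 CPM for *Gli1*- cells.

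**Figure D3:**
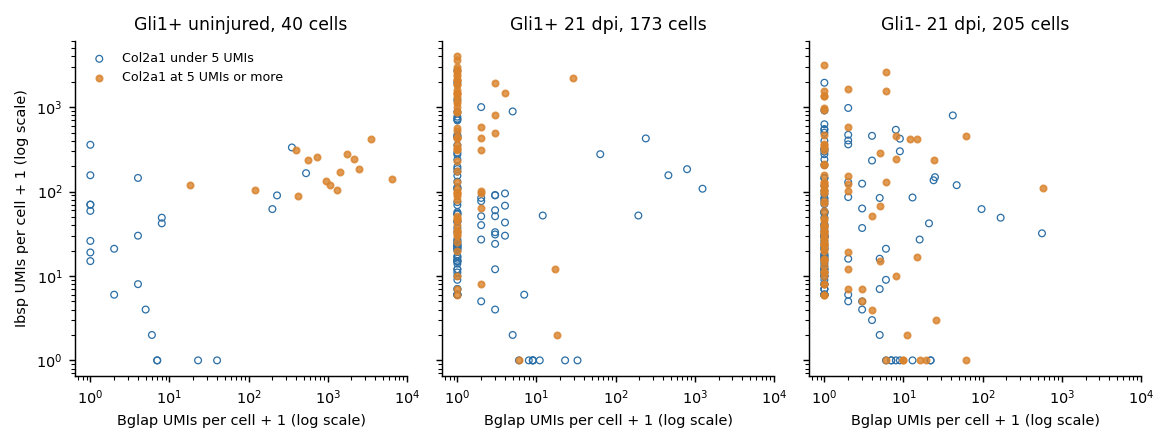
*Bglap* and *Ibsp* UMIs per cell, each plus 1 on a log scale, in the bone-like cells of the uninjured *Gli1*+, 21 dpi *Gli1*+ and 21 dpi *Gli1*- libraries. Each point is a cell, filled where it held at least 5 *Col2a1* UMIs. Uninjured cells with *Col2a1* sit at high *Bglap*, 17 to 6506 UMIs, whereas most cells at 21 dpi line up at a *Bglap* count of 0.

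*Col2a1*, the collagen of cartilage, split the bone-like cells, and the cells with at least 5 of its UMIs were not alike before and after injury. They numbered 15 in uninjured *Gli1*+, 70 in 21 dpi *Gli1*+ and 88 in 21 dpi *Gli1*- cells. The uninjured *Gli1*+ ones held *Bglap* at 48663 CPM and *Col2a1* at 1337 CPM, but *Sox9* at 2.07 CPM and *Mgp* at 28.97 CPM. They held the cartilage proteoglycan *Acan* and *Spp1* at 0 UMIs (at most 6.21 CPM for 3 UMIs). The single uninjured *Gli1*- cell held 310 *Bglap* and 85 *Spp1* UMIs, and 0 UMIs of *Acan*, *Sox9* and *Mgp*. The 21 dpi *Gli1*+ ones held *Bglap* at 61.1 CPM, *Acan* at 2036 CPM, *Sox9* at 338 CPM, *Spp1* at 22320.3 CPM and *Mgp* at 7468 CPM. The 8 *Gli1*- cells at 7 dpi held *Acan* at 2399, *Sox9* at 426, *Spp1* at 532 and *Mgp* at 5160 CPM. Their *Bglap* was at 0 UMIs, so *Acan* and *Sox9* were read in such cells at 7 dpi already. *Col10a1* was 0 in all uninjured bone-like cells of both sorts. At 21 dpi it was at 2876 and 3049 CPM in *Gli1*+ and *Gli1*- bone-like cells with *Col2a1*, and at 0 and 0.643 CPM in those without. It was found in 21 of 70 and 28 of 88 cells with *Col2a1*, and in 0 of 103 and 1 of 117 without.

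Several members separated along this line at 21 dpi. In bone-like cells with *Col2a1* against those without, *Mgp* was at 7468 against 801 CPM for *Gli1*+ and 7799 against 1322 CPM for *Gli1*- cells. *Dmp1* went the other way, at 4.47 against 76.6 CPM for *Gli1*+ and 4.07 against 137 CPM for *Gli1*- cells, and was found in few cells, 1 and 8 of the *Gli1*+ and 1 and 11 of the *Gli1*- cells. Without the cell richest in *Dmp1* the levels were 0 and 42.4 CPM for *Gli1*+ and 0 and 87.1 CPM for *Gli1*- cells. *Alpl* was higher with *Col2a1*, at 1097 against 614 CPM for *Gli1*+ and 920.4 against 485 CPM for *Gli1*- cells, and so was *Ibsp*, at 42423 against 13767 CPM for *Gli1*+ and 15652 against 9813 CPM for *Gli1*- cells. *Phex* was at 68.6 against 57.8 CPM for *Gli1*+ and 55.7 against 57.2 CPM for *Gli1*- cells, and *Enpp1* at 92.4 against 93.1 CPM for *Gli1*+ and 139.8 against 95.8 CPM for *Gli1*- cells. *Bglap* was at 61.1 against 2386 CPM for *Gli1*+ and 622 against 752 CPM for *Gli1*- cells, and *Spp1* at 22320.3 against 12308 CPM for *Gli1*+ and 12898 against 17882 CPM for *Gli1*- cells. *Bglap* also rested on few cells. Its median was 0 UMIs in all 4 groups, and without the cell richest in it the levels with and without *Col2a1* were 40.9 and 1468 CPM for *Gli1*+ and 232 and 395 CPM for *Gli1*- cells, lower with *Col2a1* in each. The cell left out of the *Gli1*- group with *Col2a1* held 578 of its 917 *Bglap* UMIs and 7 *Col2a1* UMIs, close to the minimum of 5. The protease gene *Mmp13* was higher without *Col2a1*, at 2882 against 5856 CPM for *Gli1*+ and 2139 against 6760.1 CPM for *Gli1*- cells. The split was chosen after seeing the data. The cells with *Col2a1* were deeper, at a median of 19058 against 11102 UMIs for *Gli1*+ and 15727 against 13225 UMIs for *Gli1*- cells, and the part of depth or doublets was not tested.

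**Figure D4:**
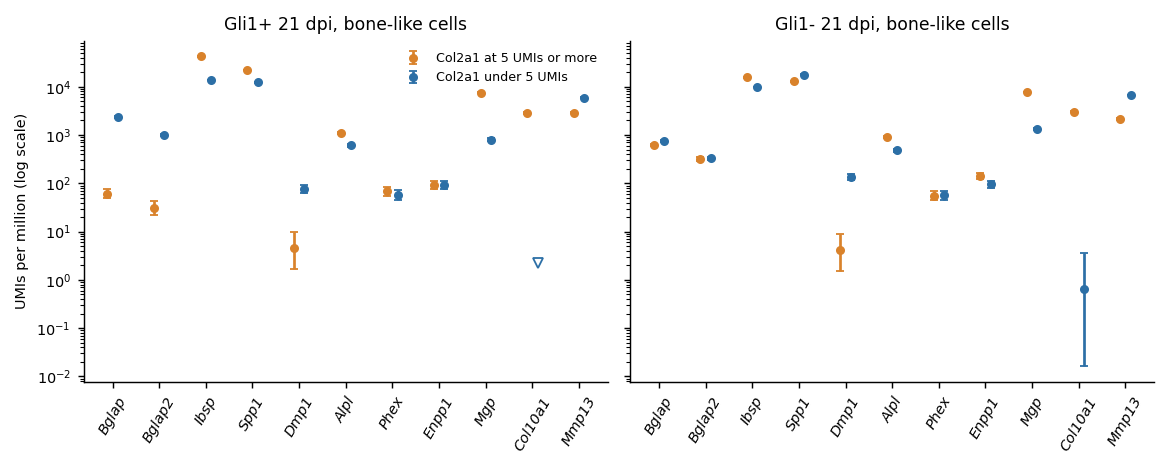
Levels (CPM, log scale) of 9 members, *Col10a1* and *Mmp13* in the bone-like cells at 21 dpi, with and without at least 5 *Col2a1* UMIs, in the *Gli1*+ (left) and *Gli1*- (right) library. Bars are 95% Poisson intervals and the open triangle marks the level of 3 UMIs for a gene with none. *Mgp* and *Col10a1* are higher and *Dmp1* is lower in the cells with *Col2a1* in both sorts.

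Osteopontin is secreted by osteoblasts, hypertrophic chondrocytes and stromal cells of injured tissue, and it binds mineral and cell receptors. *Spp1* was read at 97.2 CPM before injury, 229 CPM at 7 dpi and 1136 CPM at 21 dpi in *Gli1*+ cells, and at 35.2, 241 and 1247 CPM in *Gli1*- cells, so that each later time point was higher in both sorts, with no overlap of intervals. Its log2 ratio over uninjured was 1.24 (95% interval 1.20 to 1.28) and 3.55 (95% interval 3.51 to 3.58) in *Gli1*+ cells and 2.78 (95% interval 2.71 to 2.84) and 5.15 (95% interval 5.08 to 5.21) in *Gli1*- cells at 7 and 21 dpi. The *Gli1*+ value at 7 dpi was 0.36 without immune cells and 0.87 without removal of doublets. Bone-like and *Col2a1* cells together held 40.7%, 0.537% and 50.1% of its *Gli1*+ UMIs and 21.98%, 1.67% and 46.3% of its *Gli1*- UMIs before injury, at 7 dpi and at 21 dpi. At 7 dpi the bone-like gate held 0.116% and the *Col2a1* gate 0.481% of all *Gli1*+ UMIs, and 0.283% and 0.739% of all *Gli1*- UMIs. The *Spp1* shares at 7 dpi were thus near the size of the gates in *Gli1*+ and somewhat above it in *Gli1*- cells. In uninjured *Gli1*+ tendon the richest bone-like cell held 1490 and the next 592 of the 6209 *Spp1* UMIs, so the share rests largely on them. Without bone-like and *Col2a1* cells the log2 ratios at 21 dpi were 3.36 and 4.70. *Pdgfra* cells, the connective tissue cells outside the other gates, held 82.6, 199 and 698 CPM among *Gli1*+ and 17.5, 193 and 787 CPM among *Gli1*- cells. In *Cdh5* cells *Spp1* was at 223, 719 and 309.6 and 28.2, 248 and 619.9 CPM. In the tenocyte gate it was at 470.3, 501 and 1371 and 402, 440.4 and 1217 CPM.

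Part of the *Spp1* signal was spread thinly over *Pdgfra* and *Cdh5* cells. Thinned to 2000 UMIs, a *Spp1* UMI was found in 4.17%, 14.9% and 19.6% of *Pdgfra* cells in the *Gli1*+ sort and 1.22%, 12.6% and 24.5% in the *Gli1*- sort. The background in *Cdh5* cells was 7.77%, 11.8% and 12.7% for *Gli1*+ and 1.28%, 12.99% and 21.2% for *Gli1*-. The *Pdgfra* share was below this background in the uninjured *Gli1*+ library, and close to it in the uninjured and 7 dpi *Gli1*- libraries. The *Cdh5* level of *Spp1* was itself above that of the whole library before injury and at 7 dpi in the *Gli1*+ sort, and slightly so in *Gli1*- cells at 7 dpi, so the *Cdh5* gate is no plain background for *Spp1* there. At 7 dpi in *Gli1*+ cells the intervals overlapped, at 13.9 to 16.1% against 8.04 to 16.5%. The *Pdgfra* interval lay above that of the *Cdh5* cells at 21 dpi in *Gli1*+ cells, at 18.5 to 20.8% against 9.36 to 16.8%. In *Gli1*- cells the intervals met at 23.2% as rounded, at 23.2 to 25.7% against 19.3 to 23.2%. Unthinned shares were 7.47%, 37.4% and 40.9% and 2.41%, 35.9% and 54.1% in *Pdgfra* cells, and 11.9%, 27.3% and 27.5% and 2.01%, 27.5% and 45.1% in *Cdh5* cells. Thinning left out 15 to 98 *Pdgfra* and 29 to 796 *Cdh5* cells per library. The median depth of the *Cdh5* cells was 6056, 6610 and 6479 and 3286, 6048 and 6250.5 UMIs and that of the *Pdgfra* cells 8833, 10265 and 9474 and 5887, 11785 and 9082 UMIs. Another part came from single cells. Cells with at least 50 *Spp1* UMIs outside the bone-like and *Col2a1* gates, a group chosen after seeing the data and defined by *Spp1*, numbered 15, 64 and 239 among *Gli1*+ and 2, 93 and 271 among *Gli1*- cells, and held 36.8% and 35.1% of *Spp1* UMIs at 7 and 21 dpi for *Gli1*+ and 42.8% and 38.6% for *Gli1*- cells. *Cd68*, a macrophage gene, was at 6.48 and 0.899 CPM and at 1.16 and 0.608 CPM in them, and all 6 macrophage markers summed to 10.8 and 9.67 and to 6.39 and 10.3 CPM. *Mmp13* was at 1088 and 5225 CPM in them for *Gli1*+ and 264 and 5668 CPM for *Gli1*- cells, and the tendon matrix gene *Thbs4* at 1497 and 1246 and at 1540.3 and 994 CPM. The levels of both genes over all cells are not set beside these, so neither is shown to be particular to this group.

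*Dmp1* marks late osteoblasts and osteocytes and was read at a low level, at 0.548 CPM before injury, 0.165 CPM at 7 dpi and 1.99 CPM at 21 dpi in *Gli1*+ cells, and at 0.765, 0.464 and 3.43 CPM in *Gli1*- cells, from 35, 15 and 196 and 41, 50 and 336 UMIs. It was highest at 21 dpi, with a log2 ratio over uninjured of 1.86 (95% interval 1.34 to 2.43) in *Gli1*+ and 2.16 (95% interval 1.69 to 2.67) in *Gli1*- cells, its intervals overlapped among both uninjured libraries and *Gli1*- cells at 7 dpi, and 1 cell held 68.6% of the uninjured *Gli1*+ UMIs, 23.98% at 21 dpi in *Gli1*+ and 23.5% at 21 dpi in *Gli1*- cells. Bone-like or *Col2a1* cells held 85.7%, 40% and 55.6% of its *Gli1*+ UMIs and 63.4%, 22% and 65.2% of its *Gli1*- UMIs before injury, at 7 dpi and at 21 dpi. The rest at 21 dpi lay largely in mural cells (*Rgs5* plus *Myh11*), the contractile cells of vessel walls, where *Dmp1* was at 14.9 CPM (95% interval 11.7 to 18.7) in 45 of 565 *Gli1*+ cells and 10.9 CPM (8.84 to 13.4) in 72 of 960 *Gli1*- cells. They held 37.2% and 27.7% of its UMIs. Mural cells of the earlier libraries were at 0 and 4.24 CPM for *Gli1*+ and 1.25 and 3.18 CPM for *Gli1*- cells. *Cdh5* cells at 21 dpi held 1.43 CPM (0.389 to 3.66) and 0.247 CPM (0.0674 to 0.634) and *Pdgfra* cells 0.116 and 0.311 CPM, so the mural level stood above both backgrounds. *Bglap* was at 0.816 and 1.53 CPM in the same mural cells.

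Among the enzymes, *Alpl* removes pyrophosphate and is found on osteoblasts, hypertrophic chondrocytes and some vessels. It was read at 14.8 CPM before injury, 4.98 CPM at 7 dpi and 32.7 CPM at 21 dpi in *Gli1*+ cells, and at 35.9, 11.3 and 33.8 CPM in *Gli1*- cells. The level was lowest at 7 dpi in both sorts, and the intervals of 21 dpi overlapped between the sorts. Its log2 ratio over uninjured was -1.57 (95% interval -1.74 to -1.41) and 1.14 (95% interval 1.04 to 1.25) in *Gli1*+ cells, and -1.67 (95% interval -1.78 to -1.57) and -0.09 (95% interval -0.17 to -0.01) in *Gli1*- cells, where TMM scaling turned the 21 dpi value to 0.16. The cells that held *Alpl* differed. Bone-like or *Col2a1* cells held 60.9%, 14.8% and 79.7% of its *Gli1*+ UMIs and 4.002%, 16.5% and 72.7% of its *Gli1*- UMIs before injury, at 7 dpi and at 21 dpi. In uninjured *Gli1*- cells, *Cdh5* cells held 52.4% of the UMIs. The *Cdh5* level was 45.8, 9.36 and 3.93 CPM for *Gli1*+ and 57.02, 13.8 and 9.40 CPM for *Gli1*- cells, and so was lower after injury in both. Without bone-like and *Col2a1* cells the log2 ratio of 21 dpi over uninjured was 0.26 in *Gli1*+ and -1.81 in *Gli1*- cells. In bone-like cells, *Alpl* stood at 695, 265 and 857 CPM for *Gli1*+ and 457, 426 and 697 CPM for *Gli1*- cells. The 265 CPM rested on 28 UMIs in 13 cells, 21 of them in the richest cell, and was 75.9 CPM without it. Of the 9 uninjured *Gli1*- bone-like cells, the richest held 41 *Alpl* UMIs and the next 15.

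*Phospho1* was close to undetected. Its 5, 2 and 4 UMIs for *Gli1*+ and 4, 1 and 2 UMIs for *Gli1*- cells are 0.0782, 0.0220 and 0.0407 and 0.0746, 0.00928 and 0.0204 CPM, and all their intervals overlapped. A change of *Phospho1* was not detectable at this depth.

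*Enpp1*, the source of pyrophosphate, was read at 20.4 CPM before injury, 55.8 CPM at 7 dpi and 59.4 CPM at 21 dpi in *Gli1*+ cells, and at 22.001, 63.9 and 64.7 CPM in *Gli1*- cells. It was higher at both injured time points than in uninjured tendon, and 7 and 21 dpi lay close together. Its intervals overlapped between the uninjured sorts and between 7 and 21 dpi in *Gli1*- cells. The log2 ratio over uninjured was 1.45 and 1.54 for *Gli1*+ and 1.54 and 1.56 for *Gli1*- cells, and the *Gli1*+ values were 0.82 and 0.91 without immune cells, under 2-fold. At 21 over 7 dpi it was 0.09 (95% interval 0.04 to 0.15) and 0.02 (95% interval -0.03 to 0.07). It was spread over many cells, and 558 and 587 cells held at least 50% of the UMIs at 21 dpi. Bone-like or *Col2a1* cells held 11.1% and 13.7% of them. Of all UMIs at 21 dpi, bone-like cells held 2.72% and *Col2a1* cells 2.78% in *Gli1*+, and 3.09% and 3.28% in *Gli1*- cells. The tenocyte gate had *Enpp1* at 72.99, 125 and 109 CPM for *Gli1*+ and 136, 161 and 124 CPM for *Gli1*- cells, and *Cdh5* cells at 29.4, 53.2 and 23.2 and 16.8, 56.5 and 28.1 CPM.

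*Phex* was the member past 2-fold lower at 21 dpi in both sorts. It was read at 7.26 CPM before injury, 1.19 CPM at 7 dpi and 3.31 CPM at 21 dpi in *Gli1*+ cells, and at 8.29, 1.58 and 3.98 CPM in *Gli1*- cells. The log2 ratio of 21 dpi over uninjured was -1.13 (95% interval -1.34 to -0.93) in *Gli1*+ and -1.06 (95% interval -1.26 to -0.86) in *Gli1*- cells, and under TMM scaling -0.74 and -0.81, which is short of 2-fold. *Phex* lies on the X chromosome, and the part of the sex differences in these values was not tested. At 7 dpi in *Gli1*- cells, where both libraries held nearly no *Xist* cells, its log2 ratio was -2.39 (95% interval -2.66 to -2.13). Its intervals overlapped between the sorts at each time point. In bone-like cells the level was 322, 18.9 and 63.2 CPM for *Gli1*+ and 796, 9.82 and 56.5 CPM for *Gli1*- cells. Of the *Phex* UMIs of uninjured *Gli1*- cells, 1 cell held 28.6% and the 9 bone-like cells 30.2%. The 796 CPM may thus rest almost wholly on that cell. At 7 dpi bone-like or *Col2a1* cells held 5.56% of 108 and 2.35% of 170 *Phex* UMIs. The 18.9 and 9.82 CPM therefore rest on a few UMIs. Of all UMIs at 7 dpi, bone-like cells held 0.116% and *Col2a1* cells 0.481% in *Gli1*+, and 0.283% and 0.739% in *Gli1*- cells. The *Phex* shares were thus above the size of the gates. Bone-like or *Col2a1* cells held 57.5%, 5.56% and 53.5% of its *Gli1*+ UMIs and 30.2%, 2.35% and 45.6% of its *Gli1*- UMIs before injury, at 7 dpi and at 21 dpi.

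*Mgp*, the inhibitor, was read at 1191 CPM before injury, 1189.6 CPM at 7 dpi and 2869 CPM at 21 dpi in *Gli1*+ cells, and at 1647, 1264 and 3440.0 CPM in *Gli1*- cells, and in 83.6% and 88.1% of cells at 21 dpi. It was highest at 21 dpi in both sorts. The log2 ratio over uninjured was -0.00 (95% interval -0.02 to 0.01) and 1.27 for *Gli1*+ and -0.38 and 1.06 for *Gli1*- cells at 7 and 21 dpi. TMM scaling turned the *Gli1*+ value at 7 dpi to 0.29, and it was -0.99 without immune cells. In the tenocyte gate it was at 8104, 3927 and 4434 CPM for *Gli1*+ and 24068, 2964 and 5075 CPM for *Gli1*- cells, and in *Col2a1* cells outside the bone-like gate at 3033 and 8426 CPM for *Gli1*+ and 2593 and 8966 CPM for *Gli1*- cells at 7 and 21 dpi. The 7 such cells of uninjured *Gli1*+ tendon held it at 7207 CPM (95% interval 6719 to 7721). Bone-like cells held 284, 1362 and 4147 CPM for *Gli1*+ and 190.1, 3471 and 4473 CPM for *Gli1*- cells, and *Cdh5* cells 4812, 1142 and 2338 and 1574, 913 and 1723 CPM. Within the tenocyte gate *Mgp* was thus highest in uninjured tendon, whereas over whole libraries it was highest at 21 dpi. Fewer cells of a type and less RNA per cell cannot be told apart in the sums over whole libraries.

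With each cell thinned to 2000 UMIs before the gates, fewer cells passed them and most of these shares were lower. In *Gli1*+ cells before injury and at 21 dpi, bone-like or *Col2a1* cells then held 29.7% and 62.8% of the *Alpl*, 34.5% and 33.9% of the *Phex* and 27.95% and 34.7% of the *Spp1* UMIs. In *Gli1*- cells they held 0.292% and 59.03%, 13% and 30.4% and 2.91% and 38.2% in the same order of genes.

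**Figure D5:**
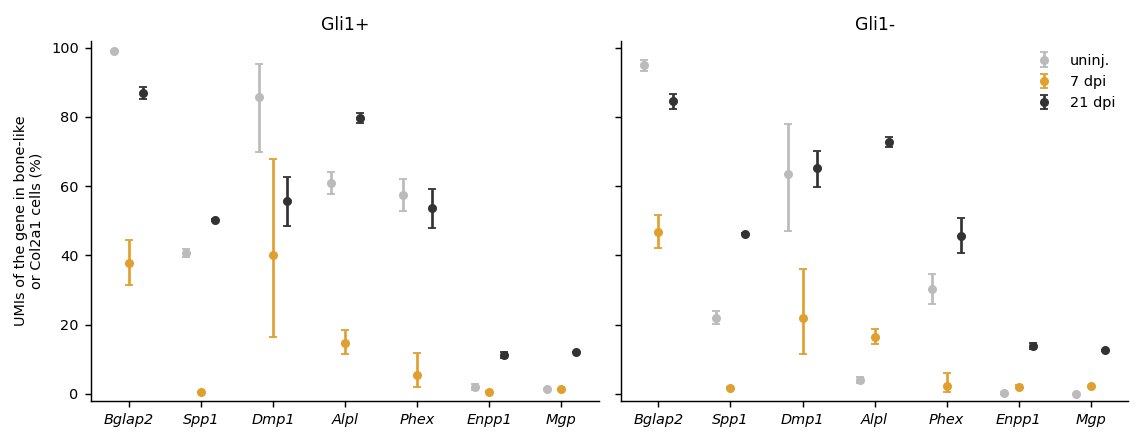
Percent of each gene's UMIs in a library that lay in bone-like or *Col2a1* cells, for 7 members in *Gli1*+ (left) and *Gli1*- (right) cells. Bars are exact 95% binomial intervals of counting error. *Bglap* and *Ibsp* define the gate and are not shown. At 21 dpi the share was 79.7% and 72.7% for *Alpl* and 12.1% and 12.6% for *Mgp*. Of all UMIs, the bone-like gate then held 2.72% and 3.09% and the *Col2a1* gate 2.78% and 3.28%.

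Other genes of mineralization were counted in 4 lists, 41 genes in all. At 21 dpi over uninjured, 14 of 37 with at least 30 UMIs were past 2-fold higher and 4 lower in *Gli1*+ cells, and 20 and 4 of 36 in *Gli1*- cells. All genes gave 10.2% higher and 27.9% lower in the former and 11.4% and 18.7% in the latter comparison. At 7 dpi the numbers were 11 and 12 of 36 for *Gli1*+, beside 13.8% and 27% of all genes, and 15 and 6 of 35 for *Gli1*- cells, beside 12.4% and 21.4%. Bone matrix genes past 2-fold at 21 dpi were 5 higher and 1 lower of 9 in *Gli1*+ and 5 and 1 of 8 in *Gli1*- cells. Genes of phosphate and pyrophosphate handling gave 0 and 2 of 7 and 2 and 1 of 6, and inhibitors and matrix protein kinases 4 and 0 of 8 and 3 and 2 of 9. Osteoblast and hypertrophic cartilage regulators gave 5 and 1 of 13 in *Gli1*+ and 10 and 0 of 13 in *Gli1*- cells. The 10 genes past 2-fold in both sorts with the largest smaller ratio were all higher, with log2 ratios in *Gli1*+ and *Gli1*- cells for *Col10a1* (9.75 and 7.50), the protease *Mmp13* (7.37 and 8.97), the hedgehog ligand *Ihh* (6.47 and 6.30), the phosphate hormone *Fgf23* (3.94 and 2.95), *Col1a1* (2.92 and 2.58), *Sparc* (2.82 and 2.24), *Bgn* (2.66 and 2.21), *Tmem119* (2.47 and 2.08), *Col1a2* (2.14 and 1.87) and the parathyroid hormone receptor *Pth1r* (1.65 and 2.25). The uninjured *Col10a1* levels were 0.0469 and 0.261 CPM and rested on 3 and 14 UMIs. *Runx2* was at -0.49 and 1.45 and *Sp7* at 1.04 and 2.60. *Ptprc* cells held 53.4% of the UMIs of the uninjured *Gli1*+ library. The counts and ratios of these lists were not recomputed without them, so the *Gli1*+ values carry the limit given above for the members.

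The genes most like each member were sought over 39 library-by-gate units of at least 20 cells, by Pearson r of log2(CPM + 1) among 11499 genes of at least 5 CPM on average. Units of 1 library share its background and depth, the bone-like units are defined by *Bglap* and *Ibsp*, and the values are a description. *Bglap* was most like *Bglap2* (r = 0.962), *Ifitm5* (r = 0.903) and *9130024F11Rik* (r = 0.876), where *Ifitm5* is a membrane protein gene of osteoblasts. *Bglap2* was most like *Bglap* (r = 0.962), *Ifitm5* (r = 0.903) and *9130024F11Rik* (r = 0.898), and *Ibsp* most like *Bglap2* (r = 0.868), *Bglap* (r = 0.856) and *9130024F11Rik* (r = 0.853). *Phex* was most like *Bglap2* (r = 0.89), *9130024F11Rik* (r = 0.872) and *Cdo1* (r = 0.862). *Alpl* was most like *Smpd3* (r = 0.893), *Omd* (r = 0.864) and *Loxl4* (r = 0.86), of which *Smpd3* encodes a sphingomyelinase of mineralizing tissue and *Omd* the matrix protein osteomodulin. *Spp1* was most like *Sphk1* (r = 0.883), *Ier3ip1* (r = 0.881) and *Ecrg4* (r = 0.863), *Enpp1* most like *Hhat* (r = 0.881), *Rtl3* (r = 0.862) and *Rbp4* (r = 0.86), and *Mgp* most like *Pkd2* (r = 0.904), *Ccn2* (r = 0.893) and *Ldlrad4* (r = 0.888). *Dmp1* and *Phospho1* were under the minimum level.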

How the data were processed

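The authors deposited raw counts (UMIs for 33696 genes by cell barcode) without normalization. The lowest count of a barcode was 500 UMIs in every library, so barcodes below it had already been left out. The matrix headers name Cell Ranger 9.0.0, whereas the submitters' processing notes list Cell Ranger 3.1.0, STAR and mm10, so the build behind the counts is uncertain and no coordinates were taken from them. Promoters came from RefSeq (GRCm38.p6) and transcripts from GENCODE M21. Barcodes were kept with at least 200 genes, 1000 UMIs, a log10 ratio (genes over UMIs) of 0.7 and at most 5% mitochondrial and 5% hemoglobin UMIs, after the study's methods. DoubletFinder was not used. The highest Scrublet scores (scanpy 1.11.5) were removed at 0.8% per 1000 cells.

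Cells were gated in the order bone-like (*Bglap* plus *Ibsp* at least 5 UMIs), *Col2a1* (5), *Cdh5* (1), *Ptprc* (1), mural (*Rgs5* plus *Myh11*, 5), epidermal (*Krt5* plus *Krt14*, 20) and *Pdgfra* (1), each cell once. Levels carry exact Poisson, shares exact binomial and log2 ratios binomial 95% intervals. With 1 library per condition no test was made. Ratios were counted past 2-fold among genes with at least 30 UMIs in the 2 libraries, and the interval script was tested on simulated data. edgeR 4.0.16 (R 4.3.3) supplied TMM factors and no test. Of the other mineralization genes, those named passed 2-fold at 21 dpi in both sorts, up to 10 by the smaller ratio, with *Runx2*, *Sp7*, *Col10a1*, *Mmp13* and *Col2a1* as references. *Ankh* was not matched, and *Ank* was. The members, lists and gates were chosen with earlier results of these data known. Alternatives covered cell filters, doublets, immune cells, epidermal cells, *Pdgfra* cells, the gate minimum, scaling, the UMI minimum, the fold and thinning.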

Additional observations from a re-analysis of the deposited data

Results flagged for a closer look

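In 2 comparisons a member had opposite directions in the sorts, with both counting intervals away from 0. The differences between sorts were not tested, since each condition has 1 library. *Ibsp* at 7 dpi over uninjured had a log2 ratio of -4.64 in *Gli1*+ and 1.06 in *Gli1*- cells. *Alpl* at 21 dpi over uninjured had a log2 ratio of 1.14 in *Gli1*+ and -0.09 in *Gli1*- cells. Without immune cells these were 0.19 and -0.09, and with TMM scaling 1.54 and 0.16, both above 0. *Bglap* at 21 dpi over uninjured was further apart, at -3.51 and 0.09 (95% interval -0.01 to 0.19), where the latter interval holds 0.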

How the results depend on the processing

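The labels give no replicate numbers and each condition has 1 library, so no replicate block was fitted, and a fit with sort and time as additive terms was not run. Of 324 log2 ratios of members recomputed under the alternatives, 123 stayed within the counting interval, 191 moved past it, and 10 that had been past 2-fold changed sign. Without bone-like and *Col2a1* cells the ratios that changed sign, over uninjured, were in *Gli1*+ cells at 7 dpi *Bglap2* at 0.12, *Ibsp* at 0.41 and *Dmp1* at 0.33, at 21 dpi *Bglap2* at 0.62, and in *Gli1*- cells at 7 dpi *Bglap* at 0.38 and *Bglap2* at 1.43. *Bglap* and *Ibsp* define the gate, so these values say nothing of the stability of their ratios, and the cause for *Bglap2* was not tested. With all cells that held a *Pdgfra* UMI alone, those of the other gates included, the ratios that changed sign were in *Gli1*+ cells *Spp1* at -0.018 at 7 dpi, and *Dmp1* at -0.0065 and *Alpl* at -0.74 at 21 dpi, and in *Gli1*- cells *Ibsp* at -0.17 at 7 dpi.

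Of the other values, 113 shares of UMIs in bone-like or *Col2a1* cells moved past the counting interval and 92 did not, most of the larger moves with thinned cells. Levels in bone-like cells with *Cdh5* and *Ptprc* cells removed first moved in 6 and not in 15 cases, and shares of cells with a UMI at another thinning in 45 and not in 3.

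Counts of members past 2-fold that changed by over 1.5 times are given with the share of all genes under the same alternative, and the other counts stayed or changed by 1 member. At 7 dpi in *Gli1*+ cells, 1 (13.8%) were higher without doublet removal, 1 (14.3%) without any cell filter, 0 (10.8%) without immune cells and 0 (13.6%) in these *Pdgfra* cells alone, and 2 (26.9%) were lower without bone-like and *Col2a1* cells. At 21 dpi in *Gli1*+ cells, 2 (6.19%) were higher without immune cells and 2 (8.11%) in these *Pdgfra* cells alone, and 1 (27.9%) was lower without bone-like and *Col2a1* cells. In *Gli1*- cells, 2 (21.2%) were lower at 7 dpi without bone-like and *Col2a1* cells. At 21 dpi 0 (18.4%) were lower without cell filters, 0 (13.8%) with TMM factors, 0 (14.5%) with median-of-ratios factors, 2 (24.4%) without a minimum of UMIs, 2 (16.9%) in these *Pdgfra* cells alone and 2 (18.5%) without bone-like and *Col2a1* cells. Bone-like cells numbered 8 in *Gli1*+ and 10 in *Gli1*- cells at 7 dpi with a gate of 10 UMIs, 14 in uninjured *Gli1*- cells without cell filters, and, thinned, 3 in *Gli1*+ at 7 dpi and 5, 8 and 123 in the *Gli1*- libraries. The causes were not tested beyond what each alternative leaves out. The few cells behind the osteocalcin and *Ibsp* UMIs at 7 dpi limit those levels.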
